A study of Mus musculus with 107 samples.

Results

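MBT2 is a bladder cancer cell line from a C3H/He mouse, and here it was grown as a graft under the skin of female C3H/HeNCrl mice aged 7 weeks at implantation. The tumors described are the 6 MBT2 tumors collected on day 8, chosen by their labels from the 107 tumors of the study. Lenvatinib (LEN) was given by mouth to 3 mice (LEN-1, LEN-3 and LEN-4) for 7 days, at 10 mg/kg 1 time a day, once their tumors had reached about 100 mm3. The other 3 mice received no treatment (NT-1, NT-3 and NT-5). No gene was deleted in either group, and the labels do not say that tumors of the same number form pairs. RNA of the whole tumor was sequenced after depletion of ribosomal RNA and is given as TPM, a level per transcript length whose sum over all genes is equal in each tumor. In addition, 3 treatment-naive MBT2 tumors were collected at the start. The other 66 day 8 tumors come from 11 more models under the skin treated the same way, with 3 NT and 3 LEN tumors in each. These are liver (Hepa 1-6, BNL 1ME A.7R.1), kidney (RAG, Renca), lung (KLN205, LL/2), colorectal (CT26.WT, MC38) and breast (4T1, EMT6) cancers and a melanoma (B16-F10). None of their hosts was C3H: 6 models grew in BALB/c, 3 in C57BL/6, 1 in DBA/2 and 1 in C57L/J mice, and the hosts of the 2 liver models were male. In each difference of MBT2 from the other models, the tumor line and the host strain therefore cannot be told apart.

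LEN is a multikinase inhibitor of the receptors for vascular endothelial growth factor (VEGF), fibroblast growth factor (FGF) and platelet-derived growth factor, and of KIT and RET. VEGF released by tumor and stromal cells binds VEGFR2 (Kdr) on endothelial cells and drives sprouting, survival and permeability of vessels, while pericytes and a basement membrane rich in type IV collagen and nidogen stabilize them. Hypoxic cells stabilize HIF transcription factors, which raise Vegfa, glucose uptake and glycolysis.

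The label of a bladder tumor was checked against urothelial and epithelial genes. Upk2 and Upk3a, which encode uroplakins of the bladder lining, were listed at 0 in each of the 6 tumors, Krt5 did not exceed 0.46 TPM, and Krt8, a simple epithelial keratin, lay between 0.68 and 1.74 TPM. The 27 genes of this list summed to between 15.3 and 21 TPM per tumor, whereas 10 mesenchymal genes summed to between 4331 and 5094 TPM, most of it Vim, the mesenchymal intermediate filament vimentin. The tumors are therefore called MBT2 tumors here and not urothelial tumors. By correlation of log2(TPM + 1), each of the 6 was most similar to another MBT2 tumor of its own group (r between 0.991 and 0.993), and r with the nearest tumor of another model was at most 0.909. Of the TPM of a tumor, 52.7% to 62.2% came from protein-coding genes. The highest share was in LEN-1 and the lowest in LEN-4, and the small RNA Rn7s1 took between 7.11% and 14.3%.

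LEN and NT were compared by limma on log2(TPM + 1) over 15382 genes with a mean of at least 1 TPM, and changes are LEN minus NT on that scale, ± the standard error of the fit, with 3 tumors a group. In the 6 MBT2 tumors alone, 2 genes were lower (0.0130% of those tested) and 1 was higher (0.00650%) at an adjusted p under 0.05. At an unadjusted p under 0.05, 1292 genes (8.40%) were lower and 837 (5.44%) were higher. The 3 LEN and 3 NT values did not overlap for 1623 genes lower in LEN (10.6%) and 1312 higher (8.53%). When the spread between tumors was estimated from all 72 day 8 tumors as 24 groups, the same MBT2 difference passed for 227 lower genes (1.48%) and 185 higher genes (1.20%). Adding only the 3 treatment-naive MBT2 tumors to the fit gave 126 lower (0.819%) and 51 higher (0.332%), or 449 and 304 after rescaling each tumor to its protein-coding genes. In all, 98 genes passed in both of these wider fits, which estimate the same difference of means and differ in the spread. Using the 72 tumor fit for the calls given below was decided after the result of the 6 tumors was seen. Below, "called" refers to the 72 tumor fit unless another is named, and each adjusted p is given in the 6 tumors alone and then in the 72 tumor fit. Where a call in that fit, or of the difference from the other models, is lost when an MBT2 tumor is left out, the tumor is named with the largest adjusted p reached (written as "up to"). The median SD of log2 values within groups was 0.16 in MBT2 and 0.20 in the other models, but of the 412 genes called in the 72 tumor fit 250 had a narrower standard error there than in the 6 tumors. After rescaling each tumor to its protein-coding genes, the 6 tumors alone gave 297 lower (2.37%) and 175 higher genes (1.39%) of 12558 tested.

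Igfbp3, which encodes a secreted binding protein of insulin-like growth factors, was the 1 gene with a proper name to pass in the 6 tumors alone. Its level was 40, 57.8 and 47.6 TPM in NT-1, NT-3 and NT-5 and 12.1, 14.1 and 10.5 TPM in LEN-1, LEN-3 and LEN-4, and the groups lay far apart. It fell by 1.89 ± 0.16 on the log2 scale (adjusted p = 0.038 in the 6 tumors and 2.9e-11 in the 72 tumor fit). The treatment-naive tumors lay at 59.1, 61.5 and 61.9 TPM, above each of the LEN tumors. Its mean change in the other models was -1.44, and the difference of MBT2 from them was -0.45 ± 0.18 (adjusted p = 0.27). The other genes that passed were Gm24056, lower, and Gm22940, higher, both gene models without a proper name.

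Genes of endothelial cells were lower with LEN. The MVD gene score, the mean of log2(TPM + 1) of Cdh5, Eng, Kdr, Pcdh12, Sparcl1 and Tek, was 3.24, 3.12 and 2.54 in NT-1, NT-3 and NT-5 and 2.23, 2.00 and 1.77 in LEN-1, LEN-3 and LEN-4. The highest LEN tumor thus lay below the lowest NT tumor, and the change was -0.97 ± 0.22. Of 27 endothelial markers tested, each had a negative change, although Cd34 turned to 0.01 and 0.0042 when the TPM were rescaled without abundant non-coding and mitochondrial RNAs or to protein-coding genes. The median was -0.85 against -0.03 over all genes tested, and 19 were called lower in the 72 tumor fit, where 1.48% of all genes were. None of the 27 passed in the 6 tumors alone (0 at adjusted p under 0.05, 24 at unadjusted p under 0.05), and 14 did after rescaling to protein-coding genes (2.37% of all genes). In RNA of whole tumors, fewer endothelial cells and less RNA per endothelial cell cannot be told apart.

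Cdh5, the cadherin of endothelial junctions, had a level of 18.8, 18.2 and 11.1 TPM in NT-1, NT-3 and NT-5 and 7.12, 5.43 and 4.19 TPM in LEN-1, LEN-3 and LEN-4. Every LEN tumor lay below every NT tumor, and the change was -1.36 ± 0.24 (adjusted p = 0.084 in 6 and 2.7e-05 in 72 tumors). Kdr, the main signalling receptor for VEGF and a target of LEN, stood at 8.82, 7.19 and 5.22 TPM in the NT tumors and 3.9, 3.45 and 2.94 TPM in the LEN tumors. All LEN tumors lay below the lowest NT tumor, NT-5, with a change of -0.85 ± 0.19 (adjusted p = 0.15 in 6 and 0.0025 in 72 tumors, lost without NT-1, up to 0.057). Sparcl1, a matrix protein of vessels and stroma, measured 17.5, 19.7 and 12.3 TPM without treatment against 6.09, 5.32 and 4.33 TPM with LEN. Its change of -1.47 ± 0.19 was the largest of the score genes (adjusted p = 0.073 in 6 and 1.8e-06 in 72 tumors). Eng (endoglin, a co-receptor for TGF-beta family ligands) was -0.81 ± 0.21 (adjusted p = 0.20 in 6 and 0.02 in 72 tumors, lost without NT-1, NT-3, LEN-3 or LEN-4, up to 0.20). Pcdh12, an endothelial protocadherin, was low in the tumors at 2.01, 1.93 and 0.83 TPM in the NT tumors and 0.67, 0.52 and 0.36 TPM in the LEN tumors, with a change of -0.74 ± 0.26 (adjusted p = 0.30 in 6 and 0.0033 in 72 tumors). Its LEN mean lay below 1 TPM, so it entered through the NT tumors, and with no minimum the adjusted p was 0.0044 in 72 tumors. Tek, the receptor for angiopoietins, had a mean below 1 TPM and was not tested, and its level was 2.09, 1.65 and 0.48 TPM in the NT tumors and 0.74, 0.56 and 0.33 TPM in the LEN tumors. For Tek the groups overlapped, since NT-5 lay below LEN-1 and LEN-3.

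The levels of Robo4, a guidance receptor of endothelium, were 4.62, 4.08 and 3.09 TPM in NT-1, NT-3 and NT-5 and 1.19, 0.93 and 1.1 TPM in LEN-1, LEN-3 and LEN-4. The LEN tumors were close together and far below the NT tumors, and the change was -1.24 ± 0.18 (adjusted p = 0.078 in 6 and 1.4e-06 in 72 tumors). Egfl7, a secreted endothelial matrix factor, was -1.42 ± 0.26 (adjusted p = 0.089 in 6 and 3.1e-05 in 72 tumors). Emcn (endomucin, a surface sialomucin of capillaries and veins) was -1.31 ± 0.27 (adjusted p = 0.12 in 6 and 0.00041 in 72 tumors). Tie1 and Esam, a receptor and an adhesion molecule of endothelium, changed by -1.11 ± 0.22 and -1.21 ± 0.24, and both were called. Pecam1, the gene of the vessel marker CD31, measured 22.6, 15 and 10.5 TPM in the NT tumors and 9.24, 7.23 and 4.47 TPM in the LEN tumors. These values did not overlap, although the NT tumors differed widely among themselves, and the change was -1.08 ± 0.31 (adjusted p = 0.23 in 6 and 0.0027 in 72 tumors, lost without NT-1 or LEN-4, up to 0.09). Gpihbp1, which carries lipoprotein lipase across capillary endothelium, changed by -1.33 ± 0.26 (adjusted p = 0.11 in 6 and 0.0025 in 72 tumors, lost without LEN-4, up to 0.066). Sox18 and Cldn5, a transcription factor and a tight junction protein of endothelium, changed by -1.11 ± 0.21 and -0.89 ± 0.20 and were called as well, Sox18 not without NT-1 or NT-3 (up to 0.069). Cldn5 was below 1 TPM on average in LEN and entered through the NT tumors (adjusted p = 0.0068 in 72 tumors with no minimum). Plvap, a component of fenestrae, was called with the smaller change of -0.80 ± 0.24 (adjusted p = 0.25 in 6 and 0.018 in 72 tumors, lost without NT-1, LEN-3 or LEN-4, up to 0.26).

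Cd34 stood apart from the other endothelial markers. It was the most abundant gene of the list, and its level was 53.6, 49.5 and 46 TPM in NT-1, NT-3 and NT-5 and 49.6, 47.3 and 49.4 TPM in LEN-1, LEN-3 and LEN-4. The groups overlapped fully, with a change of -0.02 ± 0.08 (adjusted p = 0.93 in 6 and 0.98 in 72 tumors). Its mean change in the other models was -0.54, and the difference from them was not called (0.51 ± 0.23 log2 units, adjusted p = 0.39). Stem cells and stromal cells also express Cd34. Among the markers not called, Flt1, the VEGF receptor with high affinity and weak kinase activity, was 8.78, 8.74 and 7.7 TPM in the NT tumors and 6.53, 4.93 and 3.79 TPM in the LEN tumors. Its groups did not overlap, with -0.65 ± 0.17 (adjusted p = 0.21 in 6 and 0.13 in 72 tumors). The summed level of the endothelial list was 298, 249 and 190 TPM in NT-1, NT-3 and NT-5 and 160, 136 and 117 TPM in LEN-1, LEN-3 and LEN-4, so that NT-5 lay closest to the LEN tumors. The treatment-naive tumors summed to 257, 310 and 232 TPM. Leaving out each of the 6 tumors in turn gave between 10 (without NT-1) and 22 (without NT-5) calls in the 72 tumor fit, and the median of the list stayed between -0.99 and -0.73.

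**Figure D1:**
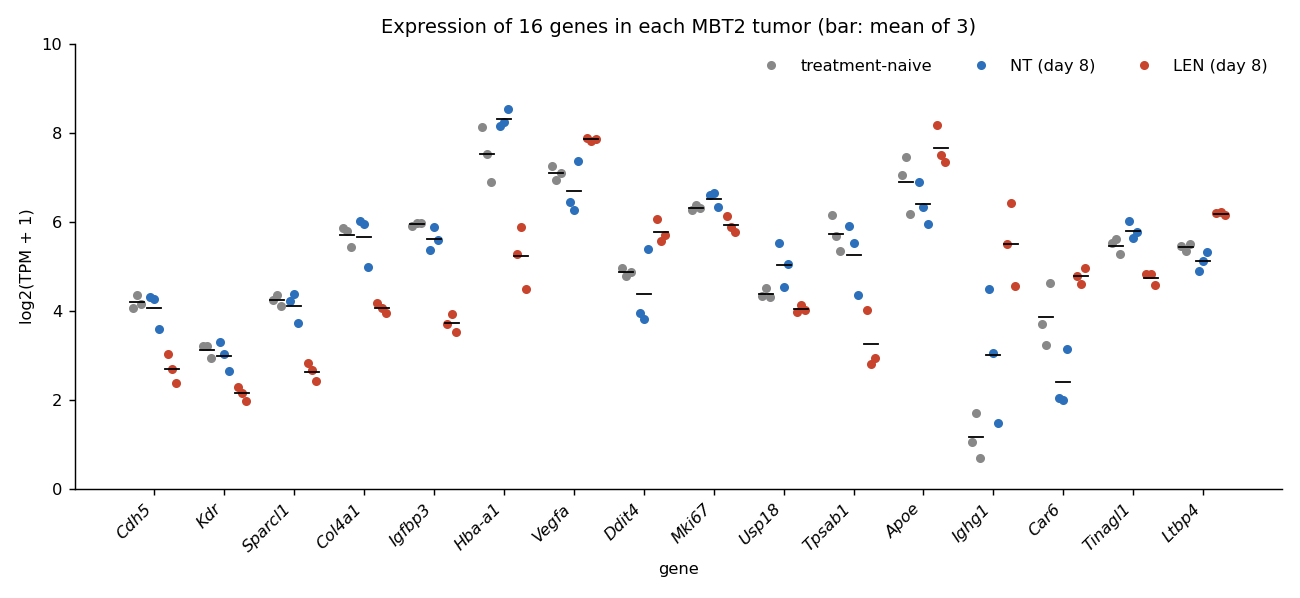
Level of 16 genes in each MBT2 tumor, as log2(TPM + 1), for the 3 treatment-naive tumors (grey), 3 NT tumors (blue) and 3 LEN tumors (red), with a bar at each group mean and points in the order of the tumor numbers. LEN and NT tumors do not overlap for any of the 16 genes, while within the NT group the third point, NT-5, lies nearest to LEN for, among others, Cdh5, Col4a1, Vegfa, Ddit4, Tpsab1 and Car6.

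Of the 10 genes encoding the receptors that LEN targets, 6 were tested and Kdr was the 1 that was called (1.48% of all genes lower, 1.20% higher). Fgfr1, the most abundant FGF receptor in these tumors per TPM, was 31.3, 33.2 and 38.5 TPM in the NT tumors and 50.1, 41.8 and 45.2 TPM in the LEN tumors. Every LEN tumor was above every NT tumor, yet the change of 0.40 ± 0.11 was not called (adjusted p = 0.21 in 6 and 0.12 in 72 tumors). Pdgfra, a receptor of stromal cells for platelet-derived growth factor, was 51.8, 48.4 and 53.5 TPM in the NT tumors and 67.9, 50.7 and 49.4 TPM in the LEN tumors, with overlapping groups and a change of 0.11 ± 0.13. Kit and Fgfr3 overlapped too, at -0.50 ± 0.25 and -0.22 ± 0.21. Flt4, the receptor for VEGF-C, had a mean below the minimum and was not tested, with 1.51, 1.57 and 1.1 TPM in the NT tumors and 0.59, 0.53 and 0.45 TPM in the LEN tumors, where every LEN tumor was below every NT tumor. Fgfr2, Fgfr4 and Ret did not exceed 0.34 TPM in any of the 6 tumors. Among 18 feedback targets of FGF and ERK signalling, 0 were called in either direction in any of the 3 fits (at an unadjusted p under 0.05, 2 were lower and 1 higher in the 6 tumors), and the median change was -0.02. Dusp6, a phosphatase induced by ERK, was 87.7, 91.9 and 75.3 TPM in the NT tumors and 84.9, 78.8 and 68.8 TPM in the LEN tumors (adjusted p = 0.64 in 6 and 0.81 in 72 tumors).

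The ligand moved the other way from its receptor. Vegfa, the main VEGF of vessels, had a level of 85.6, 75.9 and 164 TPM in NT-1, NT-3 and NT-5 and 236, 224 and 232 TPM in LEN-1, LEN-3 and LEN-4. The 3 LEN tumors agreed closely, NT-5 lay between them and the other NT tumors, and the change was 1.17 ± 0.26 (adjusted p = 0.15 in 6 and 7.7e-05 in 72 tumors). Without NT-5 it was 1.51 (adjusted p = 0.0034 in the remaining 5 tumors). The difference from the other models, whose mean was 0.62, was not called (0.55 ± 0.20 log2 units, adjusted p = 0.21) but was called without NT-5 (adjusted p = 0.0072). Vegfc, the ligand of Flt4, changed by 0.33 ± 0.13 and was not called. Of the 18 VEGF and tip cell genes tested, 4 were called lower (1.48% of all genes) and Vegfa higher (1.20%), and the median change was -0.17. Dll4, the Notch ligand of tip cells, measured 4.22, 3.83 and 3.01 TPM in the NT tumors and 1.13, 1.23 and 0.86 TPM in the LEN tumors. The groups lay well apart, with a change of -1.17 ± 0.18 (adjusted p = 0.078 in 6 and 0.00011 in 72 tumors). Nrp1, a co-receptor for VEGF, was called at -0.63 ± 0.20 (adjusted p = 0.26 in 6 and 0.013 in 72 tumors, lost without NT-1, NT-3, LEN-3 or LEN-4, up to 0.18), and its LEN-1 value of 19.2 TPM overlapped NT-5 at 18.7 TPM. Esm1, Apln and Angpt2, secreted products of sprouting endothelium, changed by -0.71 ± 0.22, -0.50 ± 0.13 and -0.41 ± 0.16, with no overlap and no call.

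Unc5b, a netrin receptor of tip cells, had the smallest adjusted p of the VEGF and tip cell list for a difference from the other models. Its level was 2.99, 2.82 and 2.13 TPM in NT-1, NT-3 and NT-5 and 0.87, 1.09 and 0.68 TPM in LEN-1, LEN-3 and LEN-4, and no LEN tumor came near the lowest NT tumor. The change in MBT2 was -0.95 ± 0.19 (adjusted p = 0.11 in 6 and 2.4e-06 in 72 tumors), the mean of the 11 other models was -0.11, and the difference was -0.84 ± 0.14 log2 units, adjusted p = 0.00013. The LEN mean of Unc5b was below 1 TPM, so it entered through the NT tumors, and with no minimum the adjusted p within MBT2 was 3e-06 in 72 tumors. The difference from the other models remained called when each of the 6 tumors or each other model was left out and under each rescaling. By contrast, the difference of MBT2 from the other models passed for 0 of the 27 endothelial markers at an adjusted p under 0.05 in limma (4 lower and 1 higher at an unadjusted p under 0.05). Of all genes tested, 0.767% were lower than in the other models and 0.585% higher. The median change of these markers was -0.66 in the mean of the other models.

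Basement membrane genes of vessels were lower as well, 7 of 13 being called (1.48% of all genes), with a median of -0.68. Col4a1, a chain of type IV collagen, was 64.3, 61.2 and 30.5 TPM in NT-1, NT-3 and NT-5 and 17.1, 15.7 and 14.6 TPM in LEN-1, LEN-3 and LEN-4. NT-5 was the lowest NT tumor and still lay above every LEN tumor, with a change of -1.59 ± 0.27 (adjusted p = 0.08 in 6 and 1.7e-07 in 72 tumors). Col4a2, its partner chain, was 34.3, 34 and 18.8 TPM in the NT tumors and 12.6, 9.75 and 7.72 TPM in the LEN tumors, with -1.42 ± 0.26 (adjusted p = 0.09 in 6 and 2.4e-06 in 72 tumors). Nid2 (nidogen, a linker of collagen IV and laminin) was 9.27, 9.32 and 6.4 TPM in the NT tumors and 2.97, 2.4 and 1.53 TPM in the LEN tumors. The lowest NT value was far above the highest LEN value, and the change was -1.51 ± 0.21 (adjusted p = 0.078 in 6 and 7.5e-07 in 72 tumors). Lama4, the laminin chain of endothelial basement membranes, and Col15a1 changed by -1.05 ± 0.23 and -0.99 ± 0.27, the call of Col15a1 being lost without NT-1, NT-3 or LEN-4 (up to 0.20). Nid1 was just called at -0.68 ± 0.13 (adjusted p = 0.095 in 6 and 0.05 in 72 tumors, lost without each tumor in turn, up to 0.30). The abundant members Sparc, Hspg2 and Lamc1, which other cells also make, were not called at -0.51 ± 0.17, -0.21 ± 0.09 and -0.10 ± 0.12.

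Col4a1 and Col4a2 differed from the mean of the other models by -0.98 ± 0.21 log2 units, adjusted p = 0.0043 (lost without NT-1 or NT-3, up to 0.098), and by -0.77 ± 0.21 log2 units, adjusted p = 0.04 (lost without NT-1, NT-3, LEN-3 or LEN-4, up to 0.33), and Sparcl1 by -0.89 ± 0.21 log2 units, adjusted p = 0.017 (lost without NT-1, NT-3 or LEN-4, up to 0.12). These 3 were the members of the list called against the other models (0.767% of all genes were lower), and 0 of the 13 were called without NT-1 or without NT-3. In Renca the falls were larger than in MBT2, at -1.99 for Col4a1, -1.77 for Col4a2 and -1.65 for Sparcl1. Of 9 genes of pericytes and smooth muscle, 2 were called lower (Mcam and Acta2, against 1.48% of all genes) and 1 higher (1.20% of all genes, Ndufa4l2, given with the hypoxia genes). Mcam, an adhesion molecule of pericytes and endothelium, was 22.7, 19.2 and 14.1 TPM in the NT tumors and 9.04, 7.91 and 6 TPM in the LEN tumors, with -1.18 ± 0.20 (adjusted p = 0.082 in 6 and 0.00041 in 72 tumors). Acta2, smooth muscle actin, was 33.1, 13.7 and 15.2 TPM in the NT tumors and 8.29, 12.5 and 3.75 TPM in the LEN tumors, where NT-1 was far above the other NT tumors, with -1.26 ± 0.44 (adjusted p = 0.30 in 6 and 0.0026 in 72 tumors, lost without NT-1 or LEN-4, up to 0.11). The pericyte genes Pdgfrb and Rgs5 were at -0.54 ± 0.25 and -0.23 ± 0.27 and were not called. Fibroblast and interstitial matrix genes were not called in either direction (0 of 25 in the 6 tumors and in the 72 tumor fit, 3 lower and 4 higher at an unadjusted p under 0.05). Col1a1 varied as much within groups as between them, at 233, 96 and 108 TPM in the NT tumors and 58.2, 108 and 38.2 TPM in the LEN tumors.

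Hemoglobin transcripts, which mark red blood cells in a tumor, showed the largest changes of any list. Hba-a1 was 284, 303 and 373 TPM in NT-1, NT-3 and NT-5 and 37.9, 58.2 and 21.5 TPM in LEN-1, LEN-3 and LEN-4, and the highest LEN tumor lay far below the lowest NT tumor. The change was -3.10 ± 0.32 (adjusted p = 0.051 in 6 and 0.00083 in 72 tumors). Hbb-bs was 153, 168 and 185 TPM in the NT tumors and 18.9, 31 and 9.09 TPM in the LEN tumors, with -3.18 ± 0.37 (adjusted p = 0.053 in 6 and 0.00039 in 72 tumors), and Hbb-bt changed by -2.99 ± 0.41. These copies of the hemoglobin genes are similar in sequence and can share reads. Of the 5 genes of the list tested, 3 were called lower (1.48% of all genes). Calls of the list numbered 3 or 4 of 5 whichever of the 6 tumors was left out, where between 91 and 300 of all genes tested were lower. The treatment-naive tumors spread more widely, at 278, 184 and 118 TPM for Hba-a1. Alas2, the erythroid enzyme of heme synthesis, was at 7.41, 7.63 and 9.9 TPM in the NT tumors and 6.87, 6.49 and 7.17 TPM in the LEN tumors and was not called. The other models had a mean of -2.04 for Hba-a1, and MBT2 did not differ from it by the test (-1.06 ± 0.62 log2 units, adjusted p = 0.58).

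Lyve1, a hyaluronan receptor of lymphatic vessels and of some macrophages, was 8.95, 21.6 and 13.3 TPM in NT-1, NT-3 and NT-5 and 1.73, 1.23 and 1.87 TPM in LEN-1, LEN-3 and LEN-4. The NT tumors spread widely but all lay far above the LEN tumors, with -2.51 ± 0.29 (adjusted p = 0.053 in 6 and 0.0021 in 72 tumors). The mean of the other models was -0.45 and the difference -2.06 ± 0.54 log2 units, adjusted p = 0.036 (lost without each tumor but NT-1, up to 0.18). Prox1, the lymphatic transcription factor, did not exceed 0.05 TPM. Fabp4 and Rbp7, lipid and retinoid carriers of adipocytes and capillary endothelium, changed by -1.80 ± 0.30 (adjusted p = 0.078 in 6 and 0.0044 in 72 tumors) and -1.76 ± 0.41 (adjusted p = 0.16 in 6 and 0.0003 in 72 tumors). The LEN mean of Rbp7 lay below 1 TPM, so it entered through the NT tumors (adjusted p = 0.00045 in 72 tumors with no minimum). Of 5 adipocyte genes tested, Fabp4 was called lower (1.48% of all genes), 3 had a positive change and the median was 0.19. Cfd (adipsin) and Car3, a carbonic anhydrase of adipocytes, were at 0.42 and 0.84 and were not called. The list summed to between 29.9 and 62.4 TPM in NT and between 18.0 and 44.1 TPM in LEN tumors, Fabp4 being the largest part of it in NT, and the part of adipocytes in these changes was not tested.

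**Figure D2:**
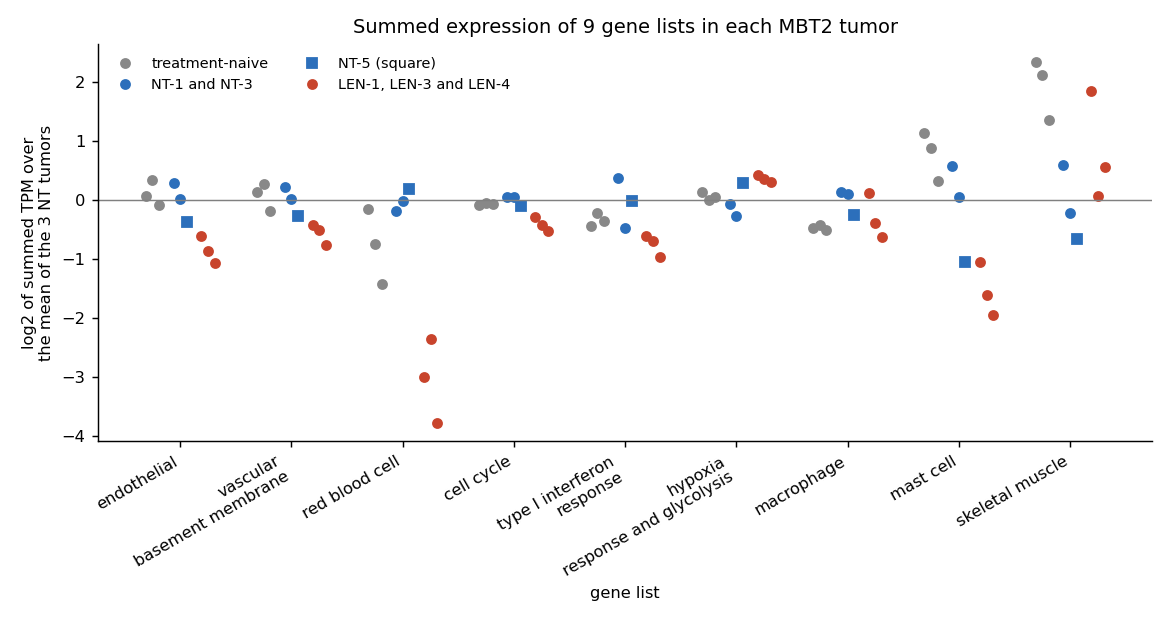
Summed TPM of 9 gene lists in each MBT2 tumor, as log2 of the ratio to the mean of the 3 NT tumors (0 on the axis), with treatment-naive tumors in grey, NT in blue (NT-5 as a square) and LEN in red. The LEN tumors lie below all NT tumors for the endothelial, basement membrane, red blood cell, cell cycle and interferon lists, NT-5 lies next to the LEN tumors for hypoxia, and skeletal muscle is higher in LEN-1 and the treatment-naive tumors than in the other tumors.

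Of 36 genes of the hypoxia response tested, 11 were called higher with LEN (1.20% of all genes), and 32 had a positive change, with a median of 0.48. The count varied with the NT tumors that were fitted. The list summed to 6416, 5620 and 8239 TPM in NT-1, NT-3 and NT-5 and to 9085, 8646 and 8289 TPM in LEN-1, LEN-3 and LEN-4, and NT-5 was just below LEN-4. Without NT-5 the median was 0.67 and 22 members were called, 13 of them also in the remaining 5 tumors alone, whereas without NT-3 only 2 were called. The treatment-naive tumors summed to 7427, 6740 and 7012 TPM.

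Ddit4 (REDD1), an inhibitor of mTORC1 induced by hypoxia and other stress, was 14.5, 13 and 40.6 TPM in NT-1, NT-3 and NT-5 and 66, 46.2 and 51.2 TPM in LEN-1, LEN-3 and LEN-4. NT-5 was far above the other NT tumors and still below every LEN tumor, and the change was 1.40 ± 0.40 (adjusted p = 0.23 in 6 and 3.5e-05 in 72 tumors). It was the 1 member of the list called against the other models, whose mean was 0.19 (1.21 ± 0.23 log2 units, adjusted p = 0.0014), and that call was kept without each of the 6 tumors and each other model. Without NT-5, Vegfa, Bhlhe40 and Bnip3 were called against the other models as well (adjusted p = 0.0072, 0.022 and 0.034 in limma). Ndrg1, a hypoxia marker, was 60.4, 45.9 and 109 TPM in the NT tumors and 164, 140 and 148 TPM in the LEN tumors, with 1.15 ± 0.28 (adjusted p = 0.17 in 6 and 0.0074 in 72 tumors, lost without NT-1 or NT-3, up to 0.14). Slc2a1, the glucose transporter GLUT1, was 60.2, 42.1 and 109 TPM in the NT tumors and 139, 119 and 121 TPM in the LEN tumors, with 0.94 ± 0.31 (adjusted p = 0.27 in 6 and 0.016 in 72 tumors, lost without NT-1, NT-3 or LEN-1, up to 0.29). Bnip3, a mitophagy receptor, was 55.2, 43.7 and 137 TPM in the NT tumors and 161, 153 and 135 TPM in the LEN tumors. Here NT-5 was above LEN-4, and the change of 1.09 ± 0.38 was called in the 72 tumor fit (adjusted p = 0.29 in 6 and 0.016 in 72 tumors, lost without NT-1, NT-3, LEN-1 or LEN-3, up to 0.26). P4ha1, which hydroxylates collagen, was 44.4, 38.4 and 55 TPM in the NT tumors and 77.4, 65.5 and 66.8 TPM in the LEN tumors, with 0.61 ± 0.14 (adjusted p = 0.15 in 6 and 0.0036 in 72 tumors, lost without NT-3, up to 0.08). Bhlhe40, a transcription factor induced by HIF, changed by 1.06 ± 0.30 (adjusted p = 0.23 in 6 and 0.0066 in 72 tumors, lost without NT-1 or NT-3, up to 0.17).

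Glycolytic enzymes, the most abundant members, had smaller changes. Pgk1 was 597, 518 and 813 TPM in the NT tumors and 870, 884 and 865 TPM in the LEN tumors, with 0.47 ± 0.16 (adjusted p = 0.28 in 6 and 0.18 in 72 tumors). Ldha was 655, 612 and 821 TPM in the NT tumors and 885, 858 and 823 TPM in the LEN tumors, with 0.31 ± 0.12 (adjusted p = 0.32 in 6 and 0.29 in 72 tumors). Gapdh and Eno1 changed by 0.22 ± 0.13 and 0.16 ± 0.09, their groups overlapped and neither was called. Ndufa4l2, a mitochondrial protein that pericytes and hypoxic cells express, was 50, 43.1 and 124 TPM in NT-1, NT-3 and NT-5 and 188, 180 and 157 TPM in LEN-1, LEN-3 and LEN-4. Its change was 1.42 ± 0.36 (adjusted p = 0.19 in 6 and 0.0024 in 72 tumors, lost without NT-3, up to 0.06), and the difference from the other models was 1.24 ± 0.31 log2 units, adjusted p = 0.025 (lost without NT-1, NT-3, LEN-1 or LEN-3, up to 0.22).

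Promoters of 2 hypoxia genes that were called and hold the core of the hypoxia response element, ACGTG, are printed to show where the letters lie. The windows run from 250 bases before to 50 bases after the RefSeq start of the gene, in build GRCm38.p6, and capitals mark ACGTG or its reverse complement. They are chr10:59951721-59952020, minus strand for Ddit4 and chr10:59323046-59323345, plus strand for P4ha1.
Ddit4: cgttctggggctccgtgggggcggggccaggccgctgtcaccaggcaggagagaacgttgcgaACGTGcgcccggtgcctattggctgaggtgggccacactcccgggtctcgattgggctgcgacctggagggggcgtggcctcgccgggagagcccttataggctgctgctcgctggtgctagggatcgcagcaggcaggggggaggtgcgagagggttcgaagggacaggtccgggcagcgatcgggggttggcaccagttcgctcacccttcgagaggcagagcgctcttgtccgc
P4ha1: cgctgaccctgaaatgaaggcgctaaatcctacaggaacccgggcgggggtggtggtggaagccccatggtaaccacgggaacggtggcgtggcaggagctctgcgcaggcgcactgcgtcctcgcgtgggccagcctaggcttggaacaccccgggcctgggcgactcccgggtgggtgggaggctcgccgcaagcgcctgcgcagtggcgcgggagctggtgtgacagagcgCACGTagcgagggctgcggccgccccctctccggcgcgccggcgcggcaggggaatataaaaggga
Of 46 windows found for 30 of the 36 hypoxia genes, 25 (54.3%) held ACGTG on either strand, compared with 19.6% of all 32851 windows. The E box CACGTG, which contains ACGTG, was in 8.7% of the hypoxia windows and 7.15% of all windows. A match of these letters is a description of the window and was not tied to any binding.

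The integrated stress response, in which ATF4 raises genes for amino acid supply and cell death under starvation or protein stress, was measured by 22 genes. Of these, 21 had a positive change, with a median of 0.26, and 5 were called higher (1.20% of all genes). Ddit3 (CHOP), a transcription factor of this response, was 39.7, 32.9 and 60.1 TPM in the NT tumors and 78.5, 56.8 and 77 TPM in the LEN tumors, so LEN-3 lay below NT-5, with 0.70 ± 0.23 (adjusted p = 0.27 in 6 and 0.019 in 72 tumors, lost without NT-1, NT-3, LEN-1 or LEN-4, up to 0.26). Aldh1l2, a mitochondrial folate enzyme, was 11.3, 10.4 and 22 TPM in the NT tumors and 32.7, 26.2 and 33.4 TPM in the LEN tumors, with 1.10 ± 0.26 (adjusted p = 0.16 in 6 and 0.0022 in 72 tumors). Gdf15, a secreted stress hormone, was 6.09, 3.53 and 5.87 TPM in the NT tumors and 9.54, 8.35 and 7.74 TPM in the LEN tumors, with 0.65 ± 0.19 (adjusted p = 0.23 in 6 and 0.016 in 72 tumors, lost without NT-3 or LEN-1, up to 0.28). Atf5 and Cebpb changed by 0.47 ± 0.10 and 0.58 ± 0.12 and were called. The call of Atf5 was lost without NT-1, NT-3, LEN-3 or LEN-4 (up to 0.17), and that of Cebpb without NT-1, NT-3 or LEN-1 (up to 0.12), whereas Atf4 itself was at 0.18 ± 0.10 with overlapping groups. Aldh1l2 and Gdf15 were the members called against the other models (0.86 and 0.68, adjusted p = 0.049 and 0.028). Those calls were lost without each tumor but NT-5 (up to 0.33) for Aldh1l2 and without NT-3, LEN-1 or LEN-3 (up to 0.29) for Gdf15. Between 1 and 7 of the 22 were called in the 72 tumor fit when a tumor was left out, the most without NT-5. Gadd45a, a stress gene chosen after its values were seen, was 14, 10.4 and 24.5 TPM in the NT tumors and 40.3, 31.8 and 34 TPM in the LEN tumors, with 1.15 ± 0.27 (adjusted p = 0.16 in 6 and 0.00019 in 72 tumors).

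Of 36 cell cycle genes, 1 was called lower in the 72 tumor fit (1.48% of all genes), while each had a negative change, with a median of -0.43. The groups did not overlap for 32 of them, where 10.6% of all genes did not overlap in that direction. Ccna2, cyclin A2, was 101, 106 and 94.3 TPM in NT-1, NT-3 and NT-5 and 74.7, 68.9 and 68 TPM in LEN-1, LEN-3 and LEN-4, and the groups were tight and apart. The change was -0.50 ± 0.08 (adjusted p = 0.078 in 6 and 0.19 in 72 tumors). Birc5 (survivin, needed for chromosome segregation) was 120, 113 and 103 TPM in the NT tumors and 78.6, 76.8 and 69.3 TPM in the LEN tumors, with -0.57 ± 0.09, and was the 1 gene of the list called in the 72 tumor fit (adjusted p = 0.078 in 6 and 0.032 in 72 tumors, lost without NT-1, NT-3, LEN-3 or LEN-4, up to 0.17). Mki67, the gene of the proliferation marker Ki-67, was 95.6, 98.7 and 79.7 TPM in the NT tumors and 69.2, 57.7 and 53.5 TPM in the LEN tumors, with -0.60 ± 0.13 (adjusted p = 0.13 in 6 and 0.15 in 72 tumors). Ccnb1, Cdk1, Plk1 and Top2a changed by -0.59 ± 0.11, -0.40 ± 0.07, -0.48 ± 0.09 and -0.40 ± 0.09. Pcna, a replication clamp, had the smaller change of -0.19 ± 0.09, with groups that just did not overlap. The fits gave different counts for this list, since 0 passed in the 6 tumors alone, 8 in the fit with the treatment-naive tumors (0.819% of all genes), 1 in the 72 tumor fit and 19 in the 6 tumors after rescaling to protein-coding genes (2.37% of all genes). In the 6 tumors 31 had an unadjusted p under 0.05. The median in the mean of the other models was -0.28, and 0 members were called against them (2 lower at an unadjusted p under 0.05).

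Hist1h1a and Hist4h4, histone genes chosen after their values were seen, were called lower. Hist1h1a was 318, 334 and 244 TPM in the NT tumors and 181, 169 and 139 TPM in the LEN tumors, with -0.87 ± 0.15 (adjusted p = 0.082 in 6 and 0.0089 in 72 tumors, lost without NT-1, NT-3 or LEN-4, up to 0.084). Hist4h4 was 57.4, 72.2 and 56.9 TPM in the NT tumors and 35, 36.6 and 30.7 TPM in the LEN tumors, with -0.84 ± 0.12 (adjusted p = 0.078 in 6 and 0.0018 in 72 tumors). Histone copies can share reads. Of 15 target genes of p53, Sesn1 was called lower (1.48% of all genes), at 8.37, 10.6 and 7.3 TPM in the NT tumors and 6.72, 4.41 and 5.77 TPM in the LEN tumors, a change of -0.56 ± 0.18 that was not called without NT-1, NT-3, LEN-3 or LEN-4 (up to 0.26). Cdkn1a and Mdm2 were at 0.21 ± 0.17 and 0.11 ± 0.10 and were not called. Genes of oxidative phosphorylation, 30 in number, had a median of -0.07, and Ndufa5 alone was called, at -0.44 ± 0.14 (adjusted p = 0.26 in 6 and 0.046 in 72 tumors, lost without NT-1, NT-5, LEN-3 or LEN-4, up to 0.38), a share of the list near the 1.48% of all genes called lower.

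For 9 of 23 genes of the type I interferon response, the effect of LEN in MBT2 was called lower than in the other models. Each of the 23 genes had a negative change in MBT2, with a median of -0.67, and the groups did not overlap for 18, where 10.6% of all genes did not overlap in that direction. The median over the mean of the other models was 0.45. These models were uneven, with Usp18 between -0.17 in LL/2 and 1.37 in B16-F10. Of the 11 changes, 1 was negative for Usp18 and 3 for Oasl1. The share called lower over all genes tested was 0.767%. The median difference was -1.25. The difference had an unadjusted p under 0.05 for all 23, but the share of all genes at that cut was not counted, so this count has no background here. The change in MBT2 by itself was called for Oasl1 alone in the 72 tumor fit (1.48% of all genes) and for 0 in the 6 tumors (21 at an unadjusted p under 0.05, against 8.40% of all genes). In the 6 tumors after rescaling to protein-coding genes it was called for 7 of 22 (2.37% of all genes).

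Usp18, which removes ISG15 from proteins and damps interferon signalling, was 45, 22.3 and 32 TPM in NT-1, NT-3 and NT-5 and 14.6, 16.6 and 15.1 TPM in LEN-1, LEN-3 and LEN-4. All LEN tumors lay at about the same level, below the NT tumors and below the treatment-naive tumors at 19, 21.9 and 19 TPM. The change within MBT2 was not called (adjusted p = 0.15 in 6 and 0.068 in 72 tumors), the other models had a mean of 0.44, and the difference was -1.44 ± 0.32 log2 units, adjusted p = 0.009 (lost without NT-1, up to 0.14). Oasl1, a sensor-like regulator of interferon output, was 70.1, 37.7 and 50.2 TPM in the NT tumors and 34.3, 25.7 and 23.1 TPM in the LEN tumors, with -0.88 ± 0.24 (adjusted p = 0.21 in 6 and 0.021 in 72 tumors, lost without NT-1, LEN-3 or LEN-4, up to 0.27). Its difference was -1.26 ± 0.24 log2 units, adjusted p = 0.0014, and the call was kept without each tumor and each other model. Irf7, the transcription factor that amplifies type I interferon, was 138, 73.2 and 90.2 TPM in the NT tumors and 66.1, 59.7 and 43.1 TPM in the LEN tumors, with -0.80 ± 0.25 and a difference of -1.42 ± 0.36 log2 units, adjusted p = 0.028 (lost without NT-1, LEN-3 or LEN-4, up to 0.27). Oas3, an enzyme that makes the activator of RNase L, was 29.5, 17.2 and 19.4 TPM in the NT tumors and 12.3, 12.3 and 10.9 TPM in the LEN tumors, with -0.81 ± 0.19 and a difference of -1.49 ± 0.33 log2 units, adjusted p = 0.0075 (lost without NT-1, up to 0.11). Oas1a, Oas2, Cmpk2, Xaf1 and Stat2 differed by -1.21, -1.26, -1.36, -1.25 and -1.10 and were called. Those calls were lost without NT-1, LEN-3 or LEN-4 (up to 0.26) for Oas1a, without each tumor but NT-5 (up to 0.37) for Oas2 and without NT-1 or LEN-4 (up to 0.22) for Cmpk2. They were lost without each tumor but NT-3 (up to 0.26) for Xaf1 and without each tumor but LEN-1 (up to 0.25) for Stat2. Isg15 and Ifit1 had overlapping groups, at 131, 63.3 and 119 TPM in the NT tumors and 67.8, 71 and 58.8 TPM in the LEN tumors for Isg15. Their differences were -1.13 ± 0.35 log2 units, adjusted p = 0.097 for Isg15 and -1.23 ± 0.37 log2 units, adjusted p = 0.086 for Ifit1.

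NT-1 was the highest tumor for Usp18, Oasl1, Irf7, Oas3 and Isg15, and its summed level of the list was 1279 TPM, against 717 and 983 TPM in NT-3 and NT-5 and 653, 614 and 507 TPM in LEN-1, LEN-3 and LEN-4. Without NT-1 the difference from the other models was called for 1 of the 23, and without each other tumor for between 3 and 10. Among genes outside the list, Ifit1bl1 was 14.8, 6.33 and 8.88 TPM in the NT tumors and 4.62, 4.67 and 3.52 TPM in the LEN tumors, called within MBT2 except without NT-1 (up to 0.13), with a difference of -1.25 ± 0.23 log2 units, adjusted p = 0.00078. Ly6a (Sca-1, an antigen induced by interferon) was 206, 99.2 and 196 TPM in the NT tumors and 127, 127 and 69.2 TPM in the LEN tumors, with -0.61 ± 0.34 in MBT2 against 1.08 in the other models, a difference of -1.69 ± 0.46 log2 units, adjusted p = 0.042 (lost without NT-1, NT-5, LEN-3 or LEN-4, up to 0.27).

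Promoters of Oas3 and Isg15 are printed because both hold the letters GAAANNGAAA, a form of the interferon-stimulated response element that was added to the search after the data were seen. The windows, in GRCm38.p6, are chr5:120777610-120777909, minus strand for Oas3 and chr4:156200769-156201068, minus strand for Isg15, and capitals mark each match on either strand, matches that overlap being joined.
Oas3: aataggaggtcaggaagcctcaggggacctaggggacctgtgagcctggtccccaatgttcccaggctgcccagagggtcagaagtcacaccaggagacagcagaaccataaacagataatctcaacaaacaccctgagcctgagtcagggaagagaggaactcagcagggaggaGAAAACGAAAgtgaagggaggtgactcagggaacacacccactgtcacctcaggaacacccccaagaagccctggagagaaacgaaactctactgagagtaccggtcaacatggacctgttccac
Isg15: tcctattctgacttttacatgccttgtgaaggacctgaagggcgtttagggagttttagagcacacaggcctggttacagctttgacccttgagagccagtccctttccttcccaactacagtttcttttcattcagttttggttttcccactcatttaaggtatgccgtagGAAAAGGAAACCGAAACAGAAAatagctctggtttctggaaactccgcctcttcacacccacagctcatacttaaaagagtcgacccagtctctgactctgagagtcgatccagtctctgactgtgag
Of 19 windows for 17 of the 23 interferon genes, 9 (47.4%) held these letters, against 3.44% of all windows. The ETS motif AGGAAG, searched in the same way, was in 68.8% of 16 windows of 12 endothelial genes and in 35.4% of all windows.

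**Figure D3:**
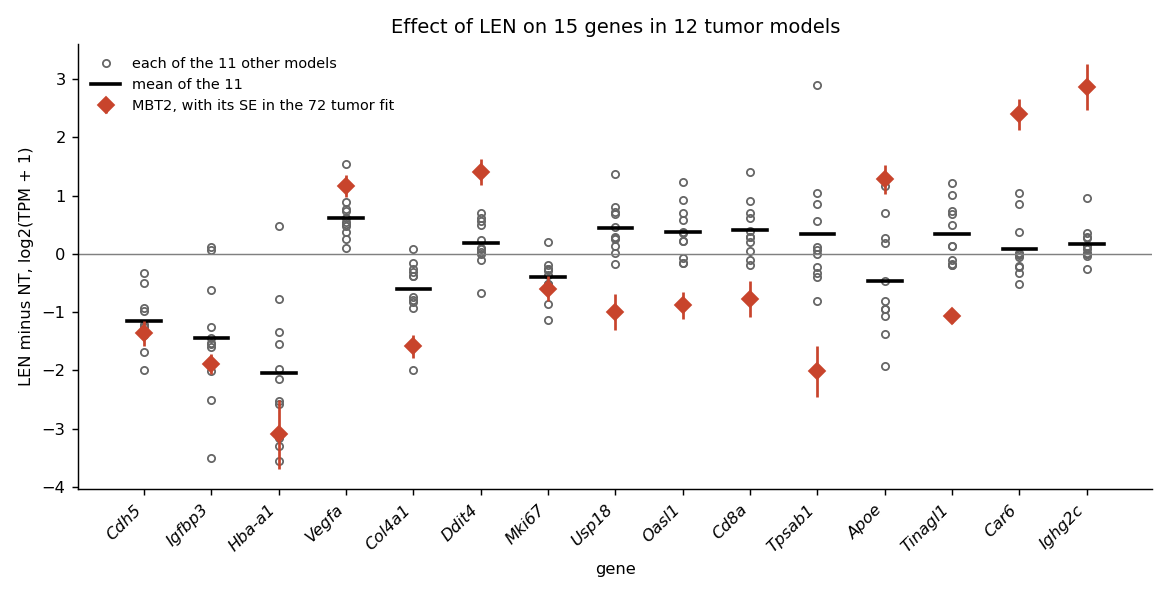
LEN minus NT on the log2(TPM + 1) scale for 15 genes in each of the 12 models, with open circles for the 11 other models, a black bar for their mean and a red diamond for MBT2 with its standard error in the 72 tumor fit. MBT2 lies within the other models for Cdh5, Igfbp3, Hba-a1, Vegfa, Col4a1 and Mki67, below all of them for Usp18, Oasl1, Cd8a, Tpsab1 and Tinagl1, and above all of them for Ddit4, Apoe, Car6 and Ighg2c.

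Interferon gamma response genes had a median of -0.41 in MBT2 and 0.50 in the mean of the other models, but the difference was called for 0 of 22 (14 lower at an unadjusted p under 0.05). Cxcl10, a chemokine for T cells, was 166, 96.2 and 114 TPM in the NT tumors and 101, 83.8 and 58.8 TPM in the LEN tumors, with -0.62 ± 0.25 (adjusted p = 0.34 in 6 and 0.68 in 72 tumors). Gbp2 was at -0.56 ± 0.21 against 0.68 in the other models (-1.24 ± 0.53 log2 units, adjusted p = 0.32). Of 24 T cell genes, Cd8a, the coreceptor of cytotoxic T cells, was the 1 called lower against the other models (0.767% of all genes). Its level was 3.57, 2.98 and 3.31 TPM in the NT tumors and 1.72, 1.75 and 1.09 TPM in the LEN tumors, and the LEN tumors, though low, lay above the treatment-naive tumors at 0.44, 1.07 and 0.66 TPM. The change was -0.78 ± 0.17 (adjusted p = 0.15 in 6 and 0.21 in 72 tumors), and the other models had a mean of 0.41. The difference was -1.19 ± 0.32 log2 units, adjusted p = 0.04 (lost without each tumor in turn, up to 0.21). Cd3e, a chain of the T cell receptor complex, was 7.88, 5.56 and 5.27 TPM in the NT tumors and 4.14, 4.25 and 4.71 TPM in the LEN tumors, with -0.41 ± 0.16 (adjusted p = 0.32 in 6 and 0.72 in 72 tumors). Gzmb, a protease of cytotoxic cells, was 11.5, 6.43 and 16.7 TPM in the NT tumors and 6.38, 5.44 and 3.3 TPM in the LEN tumors, without a call (adjusted p = 0.28 in 6 and 0.32 in 72 tumors), and with a difference from the other models of -1.64 ± 0.48 log2 units, adjusted p = 0.072. MHC class I genes had a median of -0.20 and MHC class II genes of 0.40, and no member of either list was called (0 of 11 and 0 of 8, with 2 class I members lower at an unadjusted p under 0.05). H2-Aa was 70, 64.2 and 33.9 TPM in the NT tumors and 148, 88.9 and 60.6 TPM in the LEN tumors, with LEN-1 highest and overlapping groups.

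Of the 4 mast cell proteases in the list of mast cell genes, Mcpt4, Cpa3 and Tpsb2 were called lower with LEN in MBT2 and Cma1 was not. Tpsab1, mast cell tryptase, was 58.6, 45.3 and 19.5 TPM in NT-1, NT-3 and NT-5 and 15.2, 5.93 and 6.67 TPM in LEN-1, LEN-3 and LEN-4. NT-5 was the lowest NT tumor and LEN-1 the highest LEN tumor, and they came close to each other. The change was -2.01 ± 0.46 (adjusted p = 0.15 in 6 and 0.0036 in 72 tumors, lost without NT-1, up to 0.065). The other models had a mean of 0.34, and the difference of -2.36 ± 0.46 log2 units, adjusted p = 0.0018 was kept without each tumor and each other model. These models were uneven, with Tpsab1 between -0.81 in LL/2 and 2.89 in BNL. For each of Tpsab1, Mcpt4, Tpsb2 and Cpa3, 6 of the 11 changes were positive, LL/2 was lowest and BNL was highest. A fall was thus not confined to MBT2. Mcpt4, a chymase, was 22.1, 16 and 8.82 TPM in the NT tumors and 7.51, 3.48 and 2.76 TPM in the LEN tumors, with -1.58 ± 0.39 and a difference of -2.04 ± 0.45 log2 units, adjusted p = 0.0073 (lost without NT-1 or LEN-4, up to 0.10). Cpa3, the mast cell carboxypeptidase, was 13.6, 9.33 and 3.32 TPM in the NT tumors and 2.74, 1.9 and 1.31 TPM in the LEN tumors, with -1.57 ± 0.43 and a difference of -1.77 ± 0.42 log2 units, adjusted p = 0.016 (lost without NT-1, NT-3, LEN-3 or LEN-4, up to 0.22). Tpsb2, a tryptase similar in sequence to Tpsab1, differed by -1.98 ± 0.42 log2 units, adjusted p = 0.0053 (lost without NT-1 or LEN-4, up to 0.10). The calls within MBT2 were lost without NT-1, NT-3, LEN-3 or LEN-4 (up to 0.24) for Mcpt4, without NT-1, NT-3, LEN-3 or LEN-4 (up to 0.23) for Cpa3 and without NT-1, NT-3 or LEN-4 (up to 0.15) for Tpsb2. Cma1, another chymase, was 16.9, 11.4 and 4.15 TPM in the NT tumors and 5.16, 3 and 2.26 TPM in the LEN tumors, with overlapping groups and -1.28 ± 0.46 (adjusted p = 0.30 in 6 and 0.11 in 72 tumors), and its difference of -1.54 ± 0.45 log2 units, adjusted p = 0.073 was not called. Tpsab1 came from the naming rule and is not in the list of mast cell genes. Of 6 genes of that list tested, 3 were called lower in the 72 tumor fit (1.48% of all genes), and 0 were called without NT-1, without NT-3 or without LEN-4. Hdc, the histamine enzyme that other myeloid cells also express, was 5.07, 3.29 and 2.72 TPM in the NT tumors and 4.25, 5.25 and 5.12 TPM in the LEN tumors and was not called. The list summed to 86.4, 60.6 and 28.0 TPM in the NT tumors, 28.0, 19.1 and 15.1 TPM in the LEN tumors, and 128, 107 and 72.4 TPM in the treatment-naive tumors.

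Macrophage markers had a median of -0.36, 15 of 20 with a negative change, and none was called lower (0 in the 72 tumor fit, 6 lower at an unadjusted p under 0.05 in the 6 tumors). Mrc1, the mannose receptor, was 135, 132 and 91.9 TPM in the NT tumors and 78.3, 62.6 and 53.8 TPM in the LEN tumors, with -0.87 ± 0.19 (adjusted p = 0.13 in 6 and 0.15 in 72 tumors). C1qa, a chain of complement C1q, was 409, 451 and 323 TPM in the NT tumors and 334, 215 and 182 TPM in the LEN tumors, with -0.73 ± 0.23 (adjusted p = 0.26 in 6 and 0.068 in 72 tumors), and C1qb and C1qc were at -0.67 ± 0.24 and -0.76 ± 0.24. Siglec1 (CD169, a sialic acid receptor induced by interferon), chosen after its values were seen, was 81.9, 74.5 and 49.5 TPM in the NT tumors and 38.3, 28.5 and 25.8 TPM in the LEN tumors, with -1.11 ± 0.22 (adjusted p = 0.11 in 6 and 0.016 in 72 tumors, lost without NT-1, NT-3, LEN-3 or LEN-4, up to 0.13). Ccr2, the receptor of inflammatory monocytes, was at 0.61 ± 0.20 and was not called.

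Apoe went the other way. This lipoprotein of macrophages and other cells was 118, 80 and 61 TPM in NT-1, NT-3 and NT-5 and 289, 179 and 161 TPM in LEN-1, LEN-3 and LEN-4, and each LEN tumor was above each NT tumor. The change was 1.28 ± 0.29 (adjusted p = 0.15 in 6 and 0.0014 in 72 tumors), while the other models had a mean of -0.47. Apoe rose in 4 of the 11 other models and fell in 7, and the rise in BNL, 1.17, was near that in MBT2. The difference of 1.75 ± 0.27 log2 units, adjusted p = 2.9e-05 was kept without each tumor, each other model and under each scaling. Among neutrophil genes, 13 of 15 had a positive change, with a median of 0.50, and 2 were called higher (1.20% of all genes), Il1r2 and Trem1. Trem1, an amplifying receptor of neutrophils and monocytes, was 1.04, 0.79 and 0.91 TPM in the NT tumors and 2.92, 2.11 and 2.02 TPM in the LEN tumors, and its call is no support for the list, since its NT mean lay below the minimum of 1 TPM and it entered only through the LEN tumors. Il1r2, a decoy receptor for IL-1, was 4.16, 1.32 and 3.44 TPM in the NT tumors and 4.53, 7.22 and 7.2 TPM in the LEN tumors, with 0.94 ± 0.32 (adjusted p = 0.28 in 6 and 0.038 in 72 tumors, lost without NT-3, LEN-3 or LEN-4, up to 0.46). S100a9 and Il1b were at 0.89 ± 0.35 and 0.90 ± 0.31 and were not called. The median of the neutrophil list in the other models was 0.52, and 0 members differed from them by the test (1 lower and 1 higher at an unadjusted p under 0.05).

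Of 7 B cell and plasma cell genes tested, 2 were called higher (Mzb1 and Jchain, against 1.20% of all genes). Constant regions of immunoglobulins, chosen by the naming rule or after their values were seen, were uneven among the tumors. Ighg2c, a heavy chain constant region, was 4.62, 10 and 0.28 TPM in NT-1, NT-3 and NT-5 and 45.4, 75.3 and 7.57 TPM in LEN-1, LEN-3 and LEN-4. LEN-1 and LEN-3 were high, and LEN-4 fell within the NT range. The change was 2.86 ± 0.99 (adjusted p = 0.29 in 6 and 1.9e-06 in 72 tumors), and the difference from the other models was 2.69 ± 0.41 log2 units, adjusted p = 2.9e-05. The standard error was wider in the 6 MBT2 tumors than in the 72 tumor fit, which gives all models 1 spread. Ighg1 was 21.6, 7.26 and 1.79 TPM in the NT tumors and 44.4, 85.3 and 22.4 TPM in the LEN tumors, without overlap, with 2.49 ± 0.77 (adjusted p = 0.25 in 6 and 0.0033 in 72 tumors, lost without NT-5 or LEN-3, up to 0.078). Ighg2b was 9.96, 4.94 and 0.69 TPM in the NT tumors and 43.2, 65.9 and 8.79 TPM in the LEN tumors, with overlap, and changed by 2.68 ± 0.86 (adjusted p = 0.27 in 6 and 0.0036 in 72 tumors, lost without NT-5 or LEN-3, up to 0.073). Igkc, the kappa light chain, was 70.9, 73.8 and 12.2 TPM in the NT tumors and 407, 539 and 87 TPM in the LEN tumors and was not called (adjusted p = 0.26 in 6 and 0.081 in 72 tumors). Mzb1, a chaperone of plasma cells, was 1.71, 1.58 and 0.09 TPM in the NT tumors and 6, 11.1 and 1.54 TPM in the LEN tumors, with 1.61 ± 0.60 (adjusted p = 0.32 in 6 and 0.0022 in 72 tumors, lost without LEN-3, up to 0.086). Jchain, which joins secreted antibodies, was 2.91, 2.47 and 0.59 TPM in the NT tumors and 9.38, 19.4 and 2.47 TPM in the LEN tumors, with 1.70 ± 0.64 (adjusted p = 0.32 in 6 and 0.036 in 72 tumors, lost without each tumor but LEN-4, up to 0.37). Of the B cell genes, Pax5 was at -0.33 ± 0.15 and Ms4a1 did not exceed 0.24 TPM.

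The values of 6 single variable segments are given as a description, with no test. For 5 of them, 1 LEN tumor carried most of the level, and 4 had a mean below 1 TPM in the NT tumors and passed the minimum only through the LEN tumors. Igkv8-19 was 0, 0.47 and 0 TPM in the NT tumors and 120, 4.38 and 4.88 TPM in the LEN tumors. Ighv5-16 was 0.36, 0 and 0 TPM in the NT tumors and 69.4, 4.19 and 0.77 TPM in the LEN tumors. In both, LEN-1 held nearly all of the signal. Igkv3-7 was 0.34, 2.46 and 0 TPM in the NT tumors and 28.7, 247 and 0 TPM in the LEN tumors. Ighv1-5 was 0, 0 and 0.27 TPM in the NT tumors and 0.98, 49.7 and 3.58 TPM in the LEN tumors. Igkv1-135 was 0.29, 3.32 and 0.27 TPM in the NT tumors and 4.28, 123 and 0.94 TPM in the LEN tumors. In these LEN-3 was highest. Igkv3-4 was 0.34, 24.5 and 0.62 TPM in the NT tumors and 22.1, 9.87 and 14.2 TPM in the LEN tumors, where NT-3 was the highest of the 6. Segments of these families are similar in sequence and can share reads, and none is counted as protein-coding, so the rescaled fit did not test them.

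**Figure D4:**
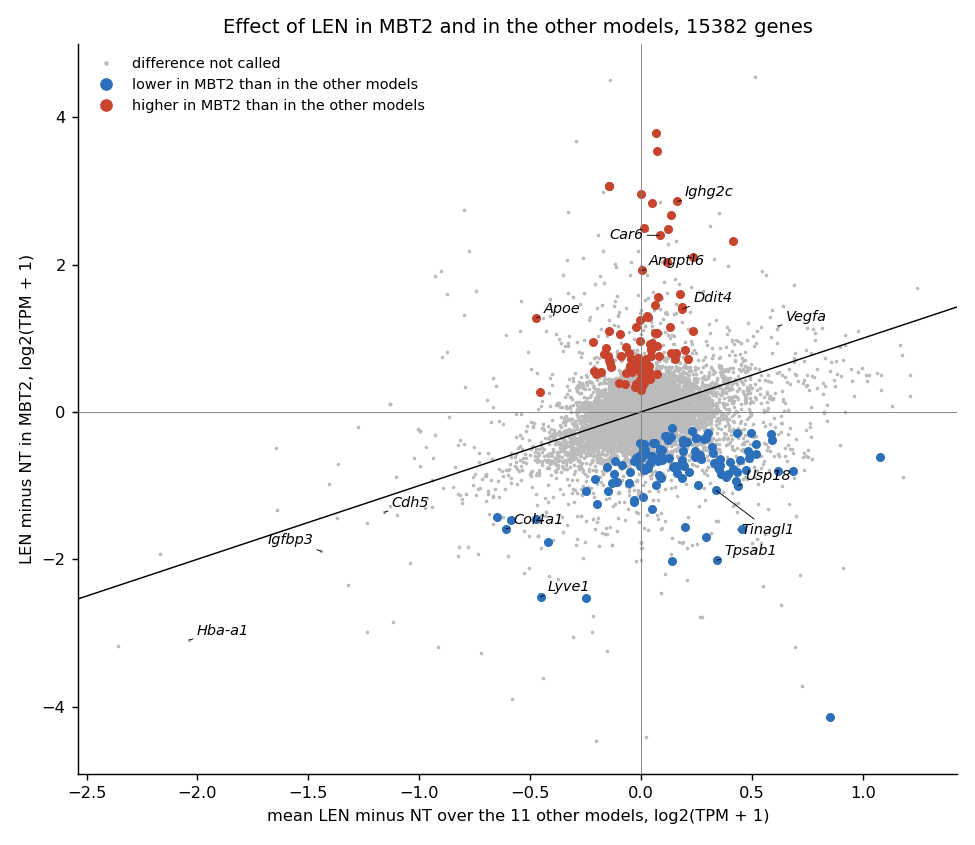
LEN minus NT in MBT2 (vertical) against the mean of the 11 other models (horizontal), both on the log2(TPM + 1) scale, for the 15382 genes tested. Points on the black line changed equally, the 118 genes called lower in MBT2 than in the other models are blue, the 90 called higher are red, and named genes are labelled.

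Against the other models, 118 genes were lower in MBT2 (0.767%) and 90 were higher (0.585%), and 153 of these 208 were also called as changes within MBT2 in the 72 tumor fit. Of the 90 higher genes, 12 were immunoglobulin genes, and 15 had a mean below 1 TPM in the NT tumors and so were tested only because of their level with LEN. Car6, a secreted carbonic anhydrase, was 3.13, 2.99 and 7.76 TPM in NT-1, NT-3 and NT-5 and 26.6, 23.5 and 30.2 TPM in LEN-1, LEN-3 and LEN-4. The LEN tumors lay far above the NT tumors and the treatment-naive tumors spread from 8.41 to 23.8 TPM, with a change of 2.40 ± 0.30 (adjusted p = 0.066 in 6 and 1e-08 in 72 tumors) and a difference of 2.31 ± 0.28 log2 units, adjusted p = 1e-07. Angptl6, a secreted angiopoietin-like factor, was 4.12, 3.21 and 8.41 TPM in the NT tumors and 23, 18.4 and 22.7 TPM in the LEN tumors, with 1.92 ± 0.28 (adjusted p = 0.078 in 6 and 2.2e-09 in 72 tumors) and a mean of 0.00 in the other models (1.92 ± 0.21 log2 units, adjusted p = 9.6e-09). Abcb1a, a drug efflux pump (P-glycoprotein), was 2.13, 1.95 and 2.63 TPM in the NT tumors and 7.31, 6.05 and 7.27 TPM in the LEN tumors. Each LEN tumor was far above each NT tumor, with 1.28 ± 0.14 (adjusted p = 0.053 in 6 and 3e-08 in 72 tumors) and a difference of 1.25 ± 0.16 log2 units, adjusted p = 2.2e-07. Slc1a7, a glutamate transporter, was 1.24, 1.14 and 2.14 TPM in the NT tumors and 5.72, 3.99 and 4.94 TPM in the LEN tumors, with 1.24 ± 0.20 and a difference of 1.25 ± 0.12 log2 units, adjusted p = 2.9e-10. Apart from Car6, which the naming rule gave, these genes were chosen after their values were seen.

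A pair of genes of TGF-beta biology was higher with little spread within groups. Ltbp4, which binds latent TGF-beta in the matrix, was 29, 34 and 39.2 TPM in NT-1, NT-3 and NT-5 and 72.6, 73.2 and 69.9 TPM in LEN-1, LEN-3 and LEN-4, with 1.07 ± 0.11 (adjusted p = 0.051 in 6 and 0.00016 in 72 tumors) and a difference of 1.00 ± 0.19 log2 units, adjusted p = 0.0015. Pmepa1, a target and inhibitor of TGF-beta signalling, was 16.6, 18.7 and 19.4 TPM in the NT tumors and 45, 36.4 and 36.7 TPM in the LEN tumors, with 1.07 ± 0.11 (adjusted p = 0.051 in 6 and 0.0038 in 72 tumors) and a difference of 1.16 ± 0.24 log2 units, adjusted p = 0.0043. In other models Pmepa1 changed by 1.30 in B16-F10, more than in MBT2, and by 0.97 in Hepa 1-6, with 7 of the 11 negative. Ltbp4 and Pmepa1 were chosen after their values were seen. So were Lif, a cytokine of the IL-6 family, and Itgb4, a laminin-binding integrin chain, which changed by 0.92 ± 0.14 (adjusted p = 0.078 in 6 and 0.0026 in 72 tumors) and 0.97 ± 0.13 (adjusted p = 0.073 in 6 and 0.0089 in 72 tumors, lost without NT-1 or LEN-3, up to 0.067). The difference from the other models was not called for either. Lgals7, a galectin of keratinocytes, was 32.5, 36.5 and 39.6 TPM in the NT tumors and 67.9, 70.4 and 76.8 TPM in the LEN tumors, with 0.97 ± 0.10 (adjusted p = 0.051 in 6 and 0.11 in 72 tumors).

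Tinagl1, a secreted matrix protein related to tubulointerstitial nephritis antigen, was lower in MBT2 and higher, on average, in the other models. Its level was 63.6, 48.8 and 53.3 TPM in NT-1, NT-3 and NT-5 and 27.4, 27.4 and 22.7 TPM in LEN-1, LEN-3 and LEN-4, and the groups were far apart with little spread in either. The change was -1.06 ± 0.13 (adjusted p = 0.053 in 6 and 5.2e-08 in 72 tumors), the other models had a mean of 0.34, and the difference was -1.40 ± 0.13 log2 units, adjusted p = 1.1e-10. Qpct, the enzyme that forms pyroglutamate at the ends of peptides, was 4.27, 3.97 and 5.42 TPM in the NT tumors and 1.78, 1.35 and 1.31 TPM in the LEN tumors, with -1.16 ± 0.17 and a difference of -1.17 ± 0.14 log2 units, adjusted p = 1e-07. F11r, the junctional adhesion molecule JAM-A, was 3.19, 4.52 and 3.24 TPM in the NT tumors and 1.06, 0.87 and 1.01 TPM in the LEN tumors, with -1.22 ± 0.18 and a difference of -1.19 ± 0.18 log2 units, adjusted p = 2.9e-05. Its LEN mean was also just below 1 TPM. Arhgap29, a RhoA regulator in endothelium and epithelium, was 6.04, 5.83 and 5.08 TPM in the NT tumors and 2.76, 1.77 and 1.35 TPM in the LEN tumors, with -1.19 ± 0.20 and a difference of -1.16 ± 0.21 log2 units, adjusted p = 0.00066. Gas6, a ligand of the TAM receptors, and Cd38, an ectoenzyme that consumes NAD, changed by -1.45 ± 0.27 and -1.25 ± 0.20 and differed by -0.98 and -1.05. In single other models Gas6 reached -1.43 (LL/2, 9 of 11 negative), Cd38 -0.96 (Renca, 7 of 11) and F11r -1.15 (LL/2, 5 of 11). The difference was lost without NT-1, NT-3, LEN-3 or LEN-4 (up to 0.27) for Gas6 and without NT-1, NT-3 or LEN-4 (up to 0.13) for Cd38. Of these 6, Tinagl1 came from the naming rule and the other 5 were chosen after their values were seen.

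**Figure D5:**
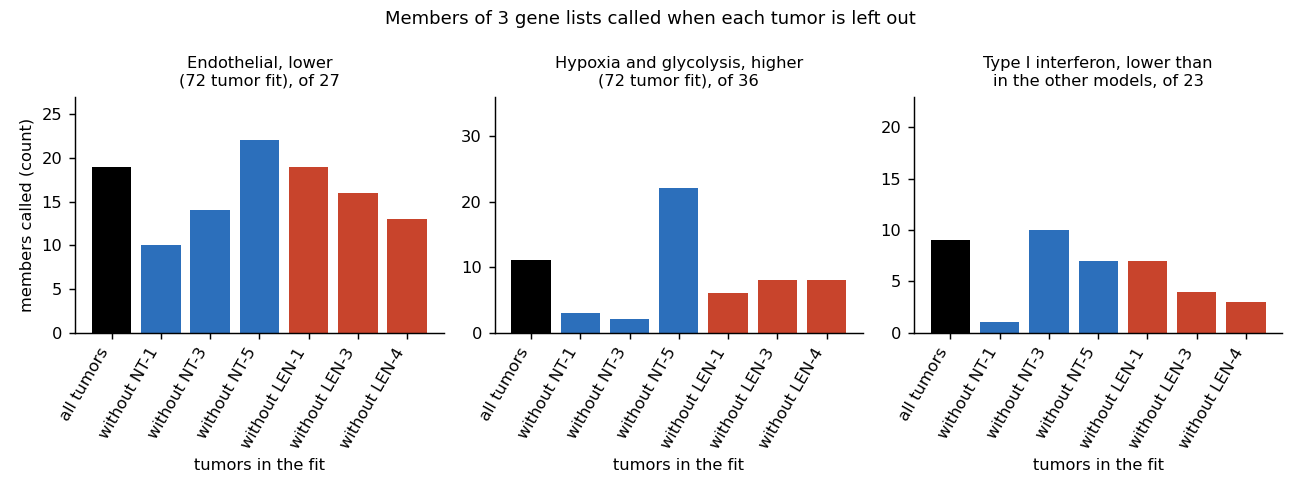
Number of members called when all tumors are fitted (black) and when each NT tumor (blue) or LEN tumor (red) is left out, for endothelial markers and hypoxia genes in the 72 tumor fit and for type I interferon genes against the other models, with each axis ending at the number tested. Endothelial calls range from 10 to 22 of 27, hypoxia calls from 2 to 22 of 36, and interferon calls from 1 to 10 of 23.

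In the remaining lists few or no genes were called. Skeletal muscle genes had a median of 0.65, 12 of 12 positive, and 0 were called (2 higher at an unadjusted p under 0.05). Their sum was 178 TPM in LEN-1 and between 31.3 and 74.3 TPM in the other 5 tumors, and the part of muscle next to the tumor in LEN-1 was not tested. Of 14 heat shock and immediate early genes, Hspa1a, an inducible HSP70, was called higher (1.20% of all genes), at 3.92, 1.03 and 1.78 TPM in the NT tumors and 6.69, 6.96 and 7.15 TPM in the LEN tumors (1.39 ± 0.30, adjusted p = 0.13 in 6 and 0.019 in 72 tumors, lost without NT-3, NT-5, LEN-3 or LEN-4, up to 0.21). The medians of NK cell genes, dendritic cell genes, monocyte genes and matrix metalloproteinases with their inhibitors were -0.41, 0.18, 0.28 and 0.05, with 0 called in the 72 tumor fit in each. At an unadjusted p under 0.05 in that fit, 3 NK cell genes were lower, and 1 dendritic cell gene, 1 monocyte gene and 2 of the metalloproteinase list were higher. Fn1 and Snai1, mesenchymal genes, changed by 0.61 ± 0.12 and 0.46 ± 0.09, without overlap and without a call.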

How the data were processed

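The authors depleted total RNA of whole tumors of ribosomal RNA and sequenced it. Per the submitters' processing notes and methods, they trimmed reads with Trimmomatic 0.36, checked them with FastQC 0.11.5, mapped them with STAR 2.5.2b to the mouse genome GRCm38 (Ensembl release 88) and estimated expression with RSEM 1.2.31. The values the authors deposited are TPM per gene for each of the 107 tumors. Sequencing depth cannot be read from TPM and is unknown here, and an abundant RNA in 1 tumor lowers the TPM of all other genes there. Gene types came from GENCODE M21 and promoter windows from RefSeq (GRCm38.p6). Samples were grouped by their titles.

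Values were analyzed as log2(TPM + 1) by limma 3.58.1 in R 4.3.3 with a mean-variance trend. The 15382 genes tested had a mean of at least 1 TPM in the 6 MBT2 tumors, and Benjamini-Hochberg adjustment ran over all of them (threshold 0.05). On this scale, log2 changes of genes at low TPM come out too small. The difference from the other models was the MBT2 change minus the mean of the 11 other changes, in a fit of 72 tumors as 24 groups. An exact permutation test of 3 against 3 tumors cannot go below p = 0.1 and was not used. Gene lists were counted and not tested. Alternatives tried were 0.1 as the pseudocount, other minimum levels (none, 5 TPM), upper quartile rescaling, rescaling without abundant non-coding and mitochondrial RNAs, no trend, the tumor number as a block, leaving out each tumor or other model, and the change within MBT2 in the fit of 72 tumors or in one of 9 tumors with the treatment-naive tumors. Rescaling to protein-coding genes, the alternatives of these wider fits and counts per list without each tumor were added after seeing the data. The scripts were tested on simulated data.

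The members and gene lists were chosen with earlier results of these data known. Genes were named by a rule: the 6 score genes, the LEN receptors, the called genes of MBT2 with the largest changes, the 4 most abundant members of each list, and the 10 largest differences from the other models in each direction. Not all of these are printed, and the genes named outside the rule were chosen after their values were seen.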

Additional observations from a re-analysis of the deposited data

Results flagged for a closer look

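The effect of LEN in MBT2 was tested against the mean effect in the 11 other models, as an interaction in the limma fit of 72 tumors, and 44 of the named genes differed at an adjusted p under 0.05, 28 of them lower in MBT2 and 16 higher. The values below are the MBT2 change minus the mean of the other changes, in log2 units. They are differences from a mean, and a single other model can change as far as MBT2 or further, as Renca did for Col4a1. The test applies to the difference itself, its groups held 3 tumors each, and groups of that size were not searched for a tumor far from the others.

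Among genes of mast cells and of vessels, the difference was -2.36 for Tpsab1, -2.04 for Mcpt4, -1.98 for Tpsb2, -1.77 for Cpa3, -2.06 for Lyve1, -1.34 for Rbp7, -0.98 for Col4a1, -0.77 for Col4a2, -0.89 for Sparcl1 and -0.84 for Unc5b. Genes of the interferon response differed by -1.49 for Oas3, -1.44 for Usp18, -1.42 for Irf7, -1.36 for Cmpk2, -1.26 for Oasl1, -1.26 for Oas2, -1.25 for Ifit1bl1, -1.25 for Xaf1, -1.21 for Oas1a and -1.10 for Stat2. The other lower genes were Ly6a at -1.69, Tinagl1 at -1.40, F11r at -1.19, Cd8a at -1.19, Qpct at -1.17, Arhgap29 at -1.16, Cd38 at -1.05 and Gas6 at -0.98.

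Higher than in the other models were the stress and hypoxia genes Gdf15 by 0.68, Aldh1l2 by 0.86, Gadd45a by 1.02, Ddit4 by 1.21 and Ndufa4l2 by 1.24. Transporters, matrix and secreted proteins differed by 1.00 for Ltbp4, 1.25 for Slc1a7, 1.25 for Abcb1a, 1.75 for Apoe, 1.92 for Angptl6 and 2.31 for Car6. Pmepa1, the inhibitor of TGF-beta signalling, differed by 1.16. Genes of plasma cells and antibody chains differed by 1.43 for Mzb1, 2.37 for Ighg1, 2.55 for Ighg2b and 2.69 for Ighg2c. Variable segments of antibody genes are left out, since 1 LEN tumor carried most of the level for 5 of the 6 described and they were near 0 in most other models.

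Of the 44 differences, 17 passed without each of the 6 MBT2 tumors, without each other model and under each rescaling that tested the gene. These were Tpsab1, Tinagl1, Oasl1, Ifit1bl1, F11r, Qpct, Arhgap29 and Unc5b among the lower genes, and Ltbp4, Pmepa1, Ddit4, Slc1a7, Abcb1a, Apoe, Angptl6, Car6 and Ighg2c among the higher ones. Among the others, when 1 MBT2 tumor was left out Rbp7 was lost without NT-1, NT-3, LEN-3 or LEN-4 (adjusted p up to 0.19) and Gadd45a without NT-3 (0.079). Mzb1 was lost without NT-5, LEN-1 or LEN-3 (up to 0.30), Ighg1 without NT-5 or LEN-3 (up to 0.18) and Ighg2b without NT-5, LEN-1 or LEN-3 (up to 0.18). The antibody chains are not in the rescaling to protein-coding genes, so it did not test Ighg2c. In the 6 MBT2 tumors alone, the adjusted p of Ighg2c in limma was 0.29, and LEN-4 lay within the NT range. Its standard error was 0.99 there and 0.39 in the fit with the other models, where its changes lay between -0.25 and 0.96. The repeats used the latter fit, so passing them does not show that its rise exceeds the spread within MBT2.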

How the results depend on the processing

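TPM keep no depth, so counting error is unknown, and with 3 tumors a group the number of calls depended on the spread each fit assumed, while the direction of the called genes did not. Median log2 changes of the gene lists in the 6 tumors moved by less than the spread between tumors in 500 of 516 repeats. The median of all genes lay between -0.03 and 0.0018 under every scaling. The cause of the shifts in counts was not tested.

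In the 6 MBT2 tumors, limma gave 2 lower and 1 higher gene. It gave 9 and 7 with a pseudocount of 0.1, 11 and 7 with no minimum TPM, 26 and 10 with a minimum of 5, 140 and 44 after upper quartile rescaling, 103 and 52 after rescaling without abundant non-coding and mitochondrial RNAs, and 297 and 175 after rescaling to protein-coding genes. It gave 0 and 0 without the mean-variance trend (1205 and 783 at an unadjusted p under 0.05), 227 and 185 in the 72 tumor fit and 126 and 51 in the 9 tumor fit. Leaving out 1 tumor gave between 0 and 50 lower and between 0 and 44 higher genes, with 0 and 0 without LEN-1 (2285 and 527 at an unadjusted p under 0.05) and 50 and 44 without NT-5. The 9 tumor fit gave 25 and 11 with no minimum, 267 and 128 after upper quartile rescaling, 224 and 157 without non-coding and mitochondrial RNAs, 449 and 304 for protein-coding genes, and 16 and 13 without the trend. Leaving out 1 tumor there gave between 5 and 206 lower and between 3 and 100 higher genes.

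The 72 tumor fit gave 227 lower and 185 higher genes. These became 102 higher with a pseudocount of 0.1, 124 and 119 with a minimum of 5, 392 and 306 after upper quartile rescaling, 380 and 324 for protein-coding genes, and between 91 and 300 lower and 80 and 206 higher without 1 tumor. Against the other models, 118 and 90 became 71 and 35 with a pseudocount of 0.1, 157 higher with no minimum, 67 and 50 with a minimum of 5, 175 higher after upper quartile rescaling, 194 and 166 for protein-coding genes, between 38 and 171 lower and 53 and 94 higher without 1 tumor, 240 lower without 4T1 and 61 lower without BNL.

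NT and LEN share only the tumor numbers 1 and 3, from different mice, with r of 0.0704 and -0.03 between their deviations from the group means. For unlike numbers r lay between -0.0881 and 0.0705. So few values cannot show whether tumors of the same number belong together, and the labels do not say so. With the number as a block the 6 tumors gave 0 lower and 0 higher genes (962 and 891 at an unadjusted p under 0.05), the 72 tumor fit 124 lower and 152 higher, and the comparison with the other models 73 lower and 64 higher.

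The MVD gene score kept its direction under each alternative, between -1.24 and -0.83. Of the genes named, the log2 change turned for Pdgfra, between -0.0328 (without LEN-1) and 0.1935 when 1 tumor was left out, and for Cd34, at 0.0116 without non-coding and mitochondrial RNAs, 0.0042 for protein-coding genes and between -0.0774 and 0.0302 (without NT-1) when 1 tumor was left out. Neither was called. Repeats of the calls of named genes passed 972 times and did not pass 151 times in the 72 tumor fit, and passed 893 and did not pass 194 times against the other models, each in the same direction.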
